A study of Mus musculus with 4 samples.

Results

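All viable cells of 3 thymi carrying the Tal1/Lmo2 transgenes were compared, 1 preleukemic thymus against 2 thymi with overt leukemia of T-cell precursors (T-cell acute lymphoblastic leukemia, T-ALL#1 and T-ALL#2). Cells were kept if they had more than 500 genes, under 10% of their unique molecular identifiers (UMIs, each standing for 1 captured transcript) in mitochondrial genes and, in T-ALL#2, at least 3416 UMIs. This left 13324 of the 17544 cells kept in the whole series by the same rule: 5576 preleukemic cells, 5773 cells of T-ALL#1 and 1975 cells of T-ALL#2. All mice were FVB/N, a laboratory inbred strain, and in all 3 the proximal Lck promoter, which is active in immature thymocytes, drove the transgenes. The preleukemic mouse was labelled male and 6 weeks old, T-ALL#1 female and 3 months old, and T-ALL#2 male and 3 months old. Leukemia and age therefore cannot be told apart, and each library is 1 animal. Viable cells had been sorted. The labels name more than 1 chemistry version without assigning it. A wild type thymus (WT, labelled male, 6 weeks old, without transgenes) is quoted only as a reference level. The comparison asks which gene programs separate overt leukemia from the transgenic thymus that precedes it.

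Unless said otherwise, values set in threes follow the order preleukemic, T-ALL#1, T-ALL#2. The kept cells held 40851235, 70745712 and 36236569 UMIs, with medians of 4888, 8742 and 17581 UMIs per cell. Between 0 and 9 cell barcodes were shared by any pair of libraries. Tal1 had levels of 410, 81.7 and 316 and was at 0 in WT, so transcripts were present where the labels put the transgene. The sex labels were not all met. Xist, the RNA of the inactive X chromosome, stood at 1869, 2312 and 0.112, and at 1337 in WT, while the Y-linked gene Ddx3y had UMIs in T-ALL#2 alone. The WT and preleukemic libraries thus went against their male labels. Xist and Y-linked genes are used for this check alone, and X-linked genes stay among those compared, with 14 of the genes called higher and 18 of those called lower below. All 10 thymocyte markers were detected in every library, with summed levels of 11171, 12806 and 9379. Summed B cell markers stood at 137, 214 and 108, and summed myeloid markers at 143, 113 and 114. Of the 10 mast cell markers, 4 were at 0 in the preleukemic library and 7 in each leukemia.

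TAL1 and LMO2 are transcriptional regulators that act in 1 complex in blood progenitors and are normally silenced as T cells develop. TAL1 pairs with E proteins, the factors that drive early thymocyte genes, and Id proteins bind and block the same E proteins. Notch1 is the receptor that commits progenitors to the T lineage, and its cleaved intracellular part switches on targets such as Hes1 and Dtx1. Mutations that activate Notch1 are frequent in T-ALL.

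Levels below are UMIs of a gene summed over a library and scaled per 1000000 UMIs, with scaling factors (TMM) that set the preleukemic library at 1. A log2 ratio of 1 is a doubling. A gene was called when its level differed at least 2-fold in the same direction in both leukemias and the exact 95% counting interval of each ratio excluded 1. Of 9274 genes with a mean level of at least 5, 513 (5.53%) were called higher and 576 (6.21%) lower in both leukemias. Another 12 genes (0.129%) were called in opposite directions. The shares of 5.53% higher and 6.21% lower are the background for all list counts below. The filter on mean level passes genes that reach it only through the preleukemic library or only through the leukemias. List counts and medians that hold such genes are tilted toward calls and away from 0. Taken singly, T-ALL#1 had 798 genes higher (8.6%) and 693 lower (7.47%), and T-ALL#2 932 higher (10.0%) and 1304 lower (14.1%). Over all compared genes the median log2 ratio was 0.12 for T-ALL#1 and -0.03 for T-ALL#2. In both leukemias 4083 of the 9274 were above 0 and 3505 below 0, and with library totals 2288 and 5131 of 9058. Scaling by library totals shifted every log2 ratio down, by 0.26 for T-ALL#1 and 0.43 for T-ALL#2, and the calls then became 265 higher (2.93%) and 865 lower (9.55%) of 9058 genes. Counting intervals cover the sampling of UMIs alone, not differences from mouse to mouse. In sums over whole libraries, fewer cells of a type and less RNA per cell cannot be told apart. The only replicate spread is that between the 2 leukemias, and with it edgeR's quasi-likelihood test with Benjamini-Hochberg adjustment called 95 genes at an adjusted p under 0.05 (36 higher, 0.388%, and 59 lower, 0.636%), against 1840 genes at an unadjusted p under 0.05. All 95 were also called by the fold rule.

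**Figure D1:**
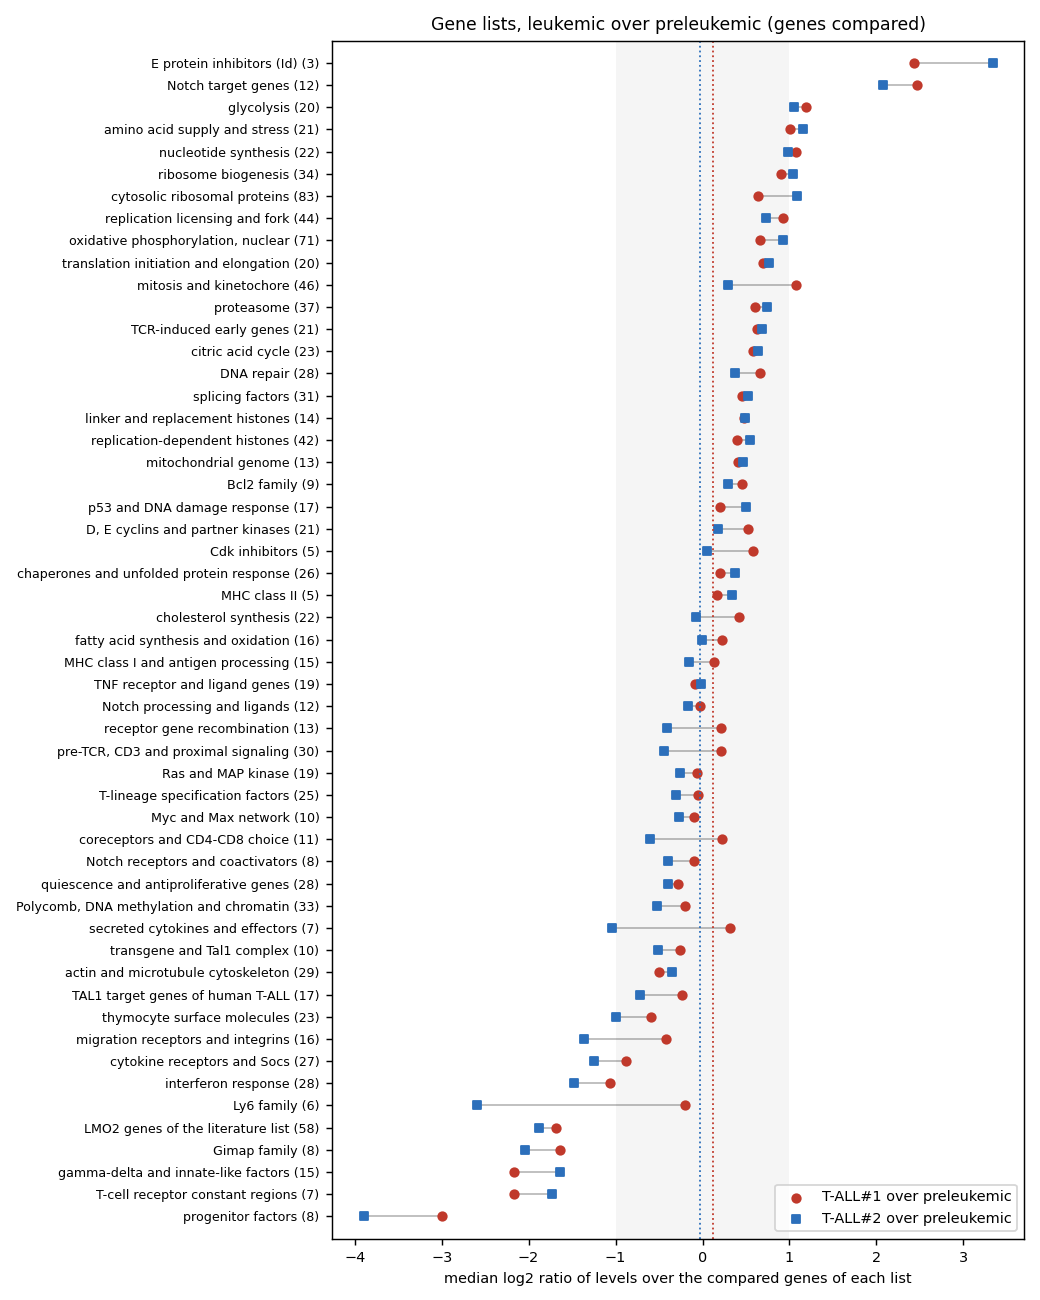
Median log2 ratio of levels over the compared genes of each list (horizontal axis), for T-ALL#1 (circles) and T-ALL#2 (squares) over the preleukemic library, with the number of compared genes in parentheses, the medians over all genes as dotted lines and the range from -1 to 1 shaded. Id genes and Notch targets lie highest, at medians of 2.08 to 3.34, and progenitor factors lowest, at -2.99 and -3.90. Only 8 of the 23 progenitor factors found were compared.

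Notch target genes were the most widely raised of the longer lists. Of 12 compared, 9 were called higher and none lower, against 5.53% of all genes, with median log2 ratios of 2.47 and 2.08, the first for T-ALL#1. Hes1, a repressor that Notch induces directly, had levels of 2.35, 204 and 154, and of 11.5 in WT. The related repressor Heyl went from 0.318 to 36.2 and 27.5. Both leukemias were thus far above the preleukemic library, at log2 ratios of 6.44 and 6.03 for Hes1 (edgeR quasi-likelihood adjusted p = 0.0221) and 6.83 and 6.43 for Heyl (adjusted p = 0.0258). Dtx1, a ubiquitin ligase that acts on Notch, stood at 12.8, 330 and 184 (edgeR adjusted p = 0.0506). Nrarp, a feedback inhibitor, stood at 1.08, 18.5 and 8.65. Hes1, Heyl and Nrarp were under 5 in the preleukemic library and were compared only because of their leukemic levels. The count and medians of Notch targets are thus tilted toward higher calls by the filter. Il2ra, the interleukin-2 receptor alpha chain that marks early thymocytes, rose from 40.5 to 244 and 248 (edgeR adjusted p = 0.0347). The 2 leukemias differed widely for Ptcra, the pre-T-cell receptor alpha chain, at 8.69, 211 and 25.2. The found genes of the Notch target list took up 0.0505%, 0.17% and 0.0763% of UMIs, and 0.101% in WT. The preleukemic share was thus the lowest, and that of T-ALL#2 stayed below WT.

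Among the receptors, Notch1 was at 144, 484 and 358, and Notch3 at 11.9, 45.7 and 24.5. Notch2 was lower, at 8.93, 4.28 and 3.58. Neither Notch1 nor Notch3 was called when libraries were scaled by their totals. Rbpj, the DNA-binding partner of cleaved Notch, stood at 50.1, 48.4 and 49.9, and its coactivator Maml1 at 20.0, 12.6 and 7.98, neither of them called. None of the 12 compared genes of Notch processing and ligands was called. Calls of higher level among Notch genes were thus in the targets and 2 receptors.

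All 3 compared Id genes were called higher, with Id1 compared only because of its leukemic levels. Id1 went from 1.98 to 31.6 and 100.1, Id2 from 20.1 to 109 and 61.3, and Id3 from 19.1 to 90.4 and 194. For Id2 and Id3 the preleukemic library was the low one, since WT held 113 and 244. None passed edgeR's test across the 2 leukemias (adjusted p from 0.135 to 0.145). The E proteins that Id factors bind differed less. Tcf3 (E2A) stood at 138, 117 and 89.3, and Tcf12 (HEB) at 408, 578 and 549. Of the other partners of the Tal1 complex, Lmo4, a LIM-only relative of Lmo2, rose from 20.4 to 197 and 302 (edgeR adjusted p = 0.0384). Lyl1, a factor closely related to Tal1, was called lower, at 20.8, 1.05 and 0.447. Gata3 (105, 131 and 124), Runx1 (303, 291 and 229) and Ldb1 (124, 90.1 and 73.8) were not called. Tal1 itself did not meet the rule, at log2 ratios of -2.33 and -0.37. Lmo2, read with the mouse gene model, was too low to be compared, with 183, 26 and 10 UMIs in the 3 libraries.

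**Figure D2:**
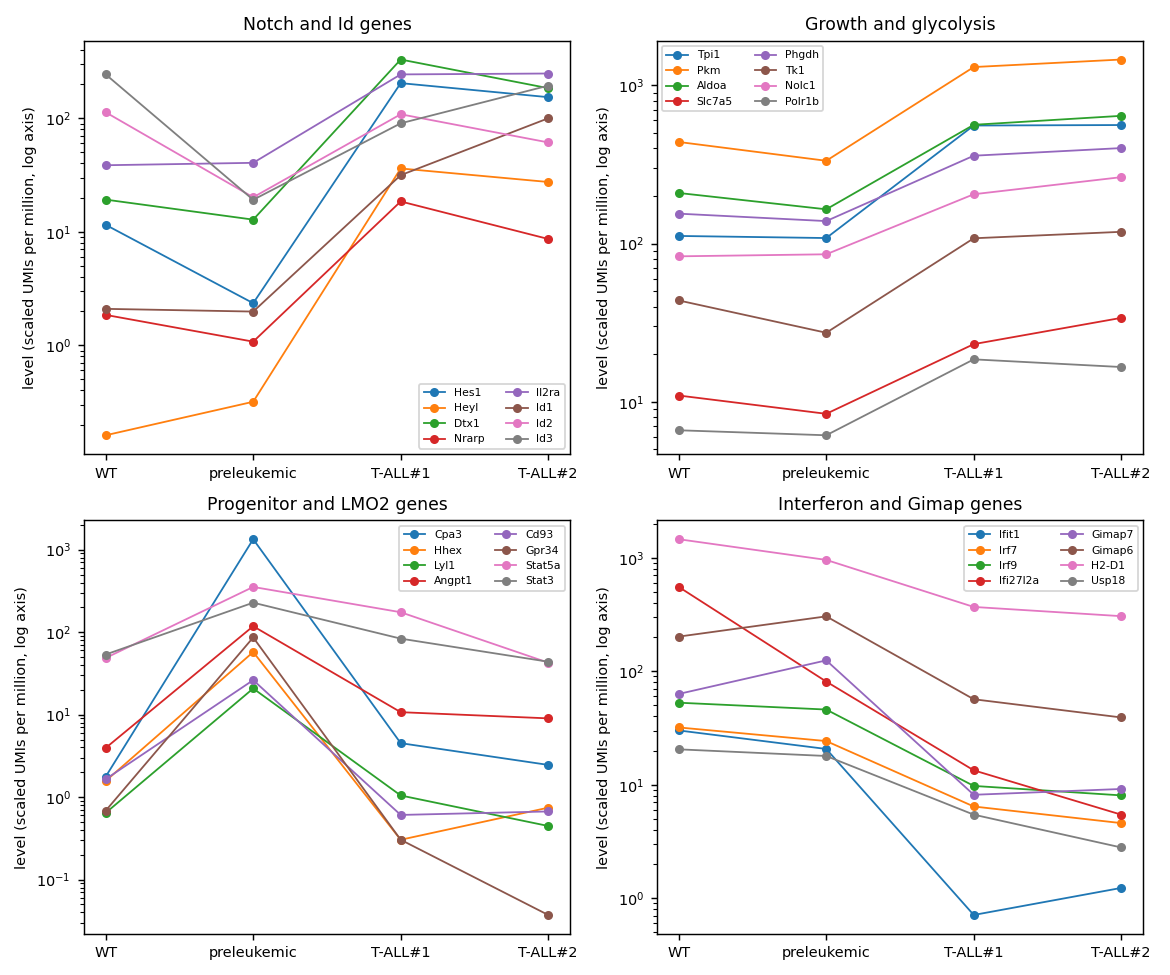
Levels (UMIs per 1000000 after scaling, log axis) of 32 named genes in the 4 libraries, 1 animal each, with lines joining the points of a gene only to guide the eye. Hes1 and Dtx1 are over 100 in both leukemias, Cpa3 falls from 1340 to 4.51 and 2.46, and Gpr34, which is X-linked, rests on 1 UMI in T-ALL#2.

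Genes of growth and metabolism were shifted upward as groups, each gene by a modest amount. Of 20 compared glycolysis genes, 10 were called higher and none lower, against 5.53% of all genes higher, with median log2 ratios of 1.20 and 1.05. With library totals 7 were called. Tpi1, a triose phosphate isomerase, rose from 108 to 558 and 561, the 1 gene of the list that passed edgeR's test (adjusted p = 0.0436). Pkm, pyruvate kinase, stood at 334, 1306 and 1457, and Slc16a3, a lactate exporter, at 2.18, 19.0 and 8.16. Hk2, the inducible hexokinase that starts the pathway, stood at 4.23, 11.4 and 19.7. The glucose transporters were not called, at 9.77, 13.8 and 11 for Slc2a1 and 14, 21.8 and 24.3 for Slc2a3. Steps after the cytosol showed smaller shifts. Of 71 compared nuclear genes of oxidative phosphorylation, 67 were above 0 in both leukemias but 4 were called (0 with library totals), among them Atp5g1 (283, 654 and 898) and Cyc1 (128, 300 and 277). Those 4 calls were near the share of 5.53% over all genes. In the citric acid cycle 1 of 23 was called, Fh1 (51.7, 113 and 119). None of the 13 genes of the mitochondrial genome was called.

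Amino acid and folate genes behaved like glycolysis, with 10 of 21 compared genes higher and none lower, and 6 of 20 with library totals. Phgdh, which opens serine synthesis, stood at 139, 359 and 401. The folate enzymes Shmt1 (23.2, 66.5 and 73.9), Shmt2 (43.4, 107 and 137) and Mthfd1 (23.1, 65.4 and 66.8) were higher in both leukemias by nearly the same amounts. Slc7a5, a carrier of large neutral amino acids, went from 8.40 to 23.1 and 33.9, and the polyamine enzyme Srm from 54.2 to 150 and 200. Atf4, the stress factor that regulates many of these genes, was not called (111, 137 and 163). Slc7a11, the cystine carrier, was higher by the rule at 1.44, 10.7 and 3.02, but the call was lost after thinning.

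Of 34 genes of ribosome biogenesis, 33 were above 0 in both leukemias and 10 were called higher, against 15 with cells thinned and 2 with library totals. Polr1b, a core subunit of RNA polymerase I, stood at 6.14, 18.5 and 16.6, and Nolc1, a nucleolar phosphoprotein, at 85.6, 205 and 263. Nhp2 (110, 281 and 359) and the methyltransferase Fbl (182, 382 and 501) belong to the particles that modify ribosomal RNA. Ribosomal protein genes took up 24.1%, 27.5% and 36.4% of all UMIs, against 21.1% in WT. Of these 83 genes 71 were above 0 in both leukemias, with medians of 0.63 and 1.09, yet only Rpl8 and Rps18 passed the fold limit. Without TMM the medians were 0.38 and 0.65. The 10 compared genes of the Myc and Max network gave no call in either direction, and 1 was called higher with cells thinned. Myc stood at 39.6, 80.3 and 60.2, at log2 ratios of 1.02 and 0.61.

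DNA synthesis genes followed. Of 22 genes of nucleotide synthesis 8 were called higher (13 with cells thinned, 3 with library totals), led by Tk1, thymidine kinase, at 27.3, 108 and 119 (log2 ratios of 1.98 and 2.12, edgeR adjusted p = 0.0521). Nme1 (300, 787 and 1051), the pyrimidine enzyme Cad (17.9, 44.9 and 57.9) and Tyms (104, 269 and 266) were also higher. Of 44 genes of replication 43 were above 0 in both leukemias (36 with library totals), against 4083 of all 9274 genes. Of the 44, 12 were called (22 with cells thinned, 1 with library totals), among them Dut (402, 1284 and 1230), Lig1 (95.2, 238 and 238) and Mcm10 (18.3, 51.9 and 41.6). The median of mitosis genes was 1.07 for T-ALL#1 and 0.29 for T-ALL#2, and 0.81 and -0.15 with library totals. Of 46 mitosis genes only Cdca8, a subunit of the chromosomal passenger complex, was called (62.6, 181 and 134). With cells thinned 15 were called higher, and with library totals 0. Among replication-dependent histones 5 were higher and 4 lower of 42. Hist1h2ap, the most abundant of those called, stood at 1916, 277 and 139, while Hist1h2ab stood at 36.4, 114 and 135. Histone genes are near-identical copies, so reads may be split among them. H1f0, a replacement linker histone, rose from 6.39 to 170 and 106 (edgeR adjusted p = 0.0347).

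These growth calls were checked at equal depth and within cell-cycle classes. After each cell was thinned to 2000 UMIs, which left out 350 preleukemic cells, 94 of T-ALL#1 and 0 of T-ALL#2, a cell with at least 10 UMIs of 42 S-phase and 52 G2/M genes was counted as cycling. By that limit 52.3% of preleukemic cells (exact binomial 95% interval 50.9 to 53.6%), 55.9% of T-ALL#1 (54.6 to 57.2%) and 59.8% of T-ALL#2 (57.6 to 62.0%) were cycling. The intervals cover the sampling of cells within 1 animal, not spread among mice. Low-cycling cells were shallower before thinning, with medians of 4791, 5153 and 11375 UMIs against 5686.5, 16795 and 22880 in cycling cells. Only T-ALL#2 cells had to hold 3416 UMIs, which may raise its share, and this was not tested. The class is a cut through a range, with 1539, 1183 and 382 cells within 2 UMIs of the limit. The 2 leukemias had more cells far above it, since at least 20 UMIs were found in 33.7% and 31.8% of cells against 15.6%.

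Within low-cycling cells 486 of 9307 genes (5.22%) were higher and 607 (6.52%) lower in both leukemias, and within cycling cells 766 of 9319 (8.22%) and 804 (8.63%). In glycolysis 7 genes were called higher in low-cycling cells and 10 in cycling cells, in amino acid supply 9 and 13, and in ribosome biogenesis 11 and 16. None of the compared genes of these 3 lists was among those that define the classes. Replication had 7 of 38 compared and 23 of 44, and mitosis 5 of 25 and 14 of 46. Of the genes of these lists compared in all cells, 19 and 27 define the classes, so their counts within a class are not independent of it. Notch targets had 9 and 8 calls and all 3 Id genes were called in both classes. Thinning without classes gave 676 genes higher (7.22%) and 699 lower (7.46%) of 9366, with 987 of the 1089 original calls shared.

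**Figure D3:**
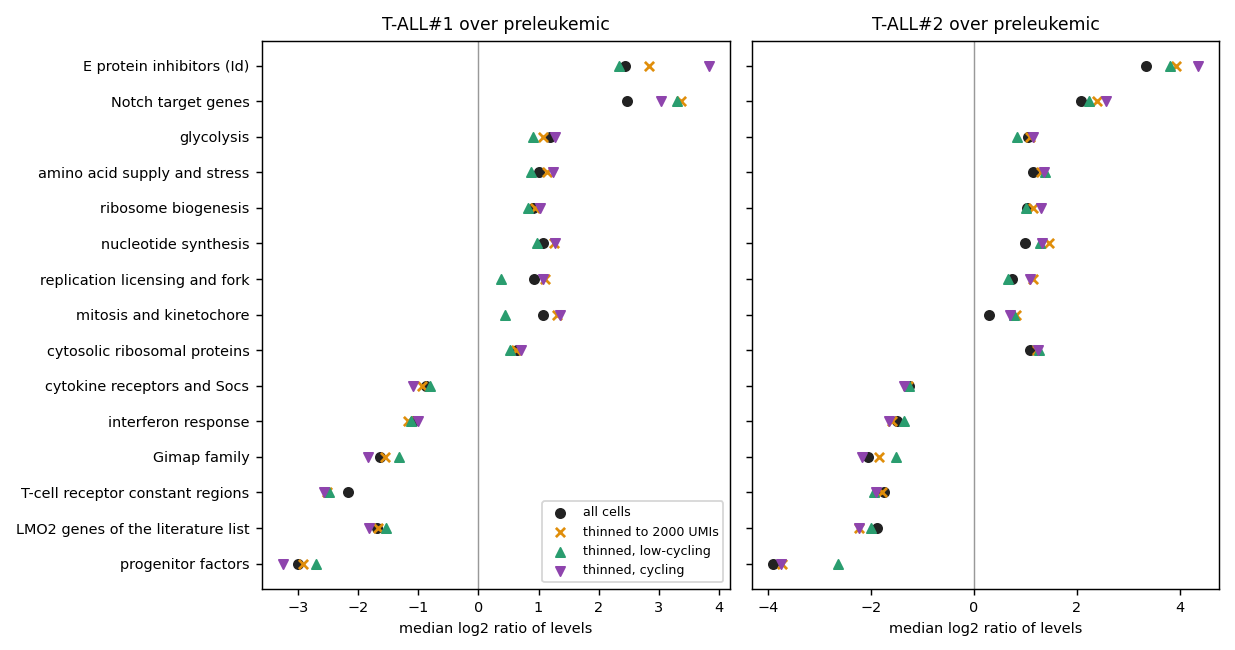
Median log2 ratio of 15 gene lists in T-ALL#1 (left) and T-ALL#2 (right) over the preleukemic library, for all cells, cells thinned to 2000 UMIs, and thinned low-cycling and cycling cells. Each list keeps its side of 0 in all 4 settings, and in T-ALL#1 the replication median is 0.37 in low-cycling and 1.08 in cycling cells.

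The opposite pattern was deepest among progenitor genes, factors of the stages before T commitment. Of 23 found only 8 reached the mean level of 5 needed to be compared. Of these 8, 5 were called lower and none higher, against 6.21% of all genes, with medians of -2.99 and -3.90. Cpa3, Hhex and Cd44 were under 5 in both leukemias and were compared only because of their preleukemic level. The count and medians are thus tilted toward lower calls by the filter. Cpa3, a carboxypeptidase of mast cells and early progenitors, stood at 1340, 4.51 and 2.46, and at 1.77 in WT (edgeR adjusted p = 0.0221). Hhex, a homeobox factor, stood at 57.5, 0.304 and 0.746, with 1.57 in WT (edgeR adjusted p = 0.0296). Angpt1, a ligand of the Tie2 receptor, went from 118 to 10.7 and 9.02, and Cd44, an adhesion receptor of early progenitors, from 16.5 to 2.86 and 0.969. Cpa3, Hhex, Lyl1 (0.645 in WT) and Angpt1 (3.95 in WT) were thus low in WT, high in the preleukemic thymus and low again in both leukemias. Kit, the stem cell factor receptor, was below the level to be compared, with 337, 8 and 1 UMIs. Of the 10 mast cell markers, Tpsab1, Tpsb2, Mcpt4 and Fcer1a were at 0 in all 3 libraries. Transcripts of Cma1, Gata2 and Ms4a2 were found among preleukemic cells but in neither leukemia. Mast cell markers above 3 UMIs numbered 4, 3 and 2. Cpa3 made up nearly all of the summed mast cell marker level of 1349 in the preleukemic library.

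Cpa3, Hhex, Lyl1 and Angpt1 also belong to a published list of LMO2-responsive genes that the study curated for its gene set analysis. The list was added here after these values were seen. Of its 81 genes 75 were found and 58 compared, and 35 were called lower in both leukemias, 3 higher and 20 neither. The medians were -1.69 and -1.88, against 0.12 and -0.03 over all genes. Members such as Cpa3, Hhex, Lyl1, Cd93 and Serpine2 were under 5 in both leukemias and were compared only because of their preleukemic level. The count and medians of this list are thus tilted toward lower calls by the filter. With cells thinned, and in low-cycling and in cycling cells, the count of lower genes was 35 in each. Beside the progenitor genes the list holds the complement-type receptor Cd93 (26.2, 0.609 and 0.671), the protease inhibitor Serpine2 (49.0, 1.03 and 1.19) and Mta3, a subunit of a chromatin remodeller (247, 51.3 and 36.2). All 3 passed edgeR's test, among 11 genes of the list that did. The found genes of the list took up 0.794%, 0.277% and 0.185% of UMIs, and 0.311% in WT. The 3 higher genes were Cdkn2a (1.18, 11.5 and 18.1), the aldehyde dehydrogenase Aldh1b1 (14, 59.1 and 58.6) and H2-Oa (15.6, 33.5 and 37.4), whose call was lost with library totals. Igf2bp3 (68.4, 77.8 and 84.4) and Btg1 (412, 521 and 242) were not called.

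**Figure D4:**
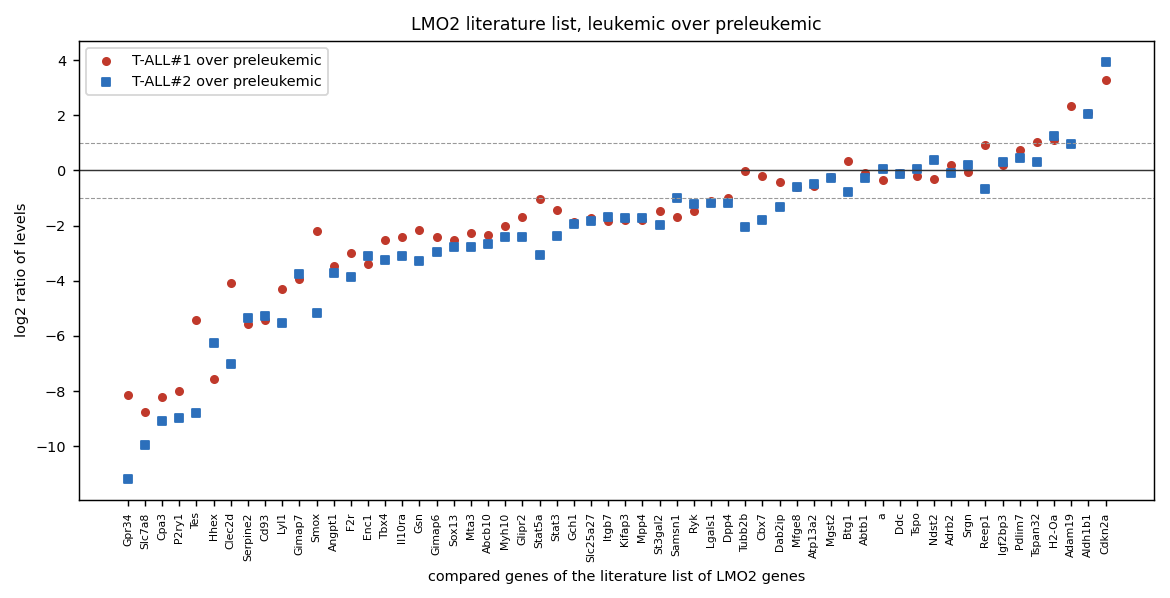
Log2 ratio of levels (vertical axis) of the 58 compared genes of the LMO2 literature list, ordered by the mean of both leukemias, in T-ALL#1 (circles) and T-ALL#2 (squares) over the preleukemic library, with dashed lines at -1 and 1. The medians are -1.69 and -1.88, and 3 genes are called higher. The filter on mean level tilts both medians toward lower values.

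Genes of the gamma-delta and innate-like T lineages were lower too, 8 of 15 compared, with 2 higher (Id2 and Id3). Rora, a nuclear receptor of innate-like lymphocytes, went from 195 to 6.65 and 9.39 (edgeR adjusted p = 0.0221), and Sox13, a gamma-delta factor, from 35.1 to 6.05 and 5.07. Nkg7, a granule protein, stood at 56.7, 5.99 and 0.932. The constant genes of the gamma chain were all lower: Tcrg-C1 (252, 37.6 and 22), Tcrg-C2 (451, 89.8 and 135) and Tcrg-C4 (257, 57.3 and 82.3). The other constant genes that met the rule were lower unevenly. Trdc, the delta chain, stood at 1149, 2.87 and 177, and Trbc1, the first beta constant gene, at 2995, 1341 and 0.895. Trbc2, its close copy, stood at 3167, 4926 and 4716, and Trac at 178, 328 and 175. The near absence of Trbc1 thus belonged to T-ALL#2 and the near absence of Trdc to T-ALL#1. Markers of NK and NKT cells did not move together, since their summed level of 428, 899 and 1559 was almost all Gzma, a granzyme (347, 877 and 1550).

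Cytokine receptors and their STAT signalling proteins were lower, 11 of 27 compared, against 6.21% of all genes, with Il2ra and Socs3 the 2 higher. Il18r1, the interleukin-18 receptor, stood at 18.2, 1.30 and 0.261, Il10ra at 15.2, 2.89 and 1.79, and Il12rb2 at 91.3, 28.0 and 19.2. Il18r1 and Il10ra were under 5 in both leukemias and were compared only because of their preleukemic level. The filter thus tilts the count of 11 toward lower calls. The shared gamma chain Il2rg, which is X-linked, stood at 172, 82.7 and 75.1. All 3 of the signal transducers Stat3 (228, 83.5 and 43.8), Stat5a (354, 175 and 42.7) and Stat5b (234, 97.9 and 60.6) were lower, and Stat3 and Stat5a were nearer to the WT levels of 53.6 and 48.7. Socs3, a feedback inhibitor of STAT signalling, was higher at 1.37, 29.0 and 11. Il7r, the receptor that supports early thymocytes, was not called (33.9, 39.3 and 23.7). Among secreted factors Tgfb1 was lower (118, 50.5 and 46.0), while Il22 and its copy Iltifb had 0 UMIs in the preleukemic library. Reads of these near-identical copies may be split between them. The level of Il22 was at least 1722-fold higher in the first leukemia and at least 145-fold higher in the second, against a floor of 3 UMIs in the preleukemic library.

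Interferon-response genes were lower as a group. Of 28 compared, 14 were called lower and none higher, against 6.21% of all genes lower. In both leukemias 25 of the 28 were below 0, against 3505 of all 9274 genes, and the medians were -1.07 and -1.48. Some members, among them Ifit1 and Tgtp2, were under 5 in both leukemias and were compared only because of their preleukemic level. The counts and medians of the interferon list are thus tilted toward lower calls. Ifit1, an antiviral RNA sensor, stood at 20.7, 0.710 and 1.23 (edgeR adjusted p = 0.0498). The factors Irf7 (24.3, 6.43 and 4.59) and Irf9 (46.0, 9.76 and 8.05) were lower, as was Stat2, their partner (21.5, 10.6 and 8.13), which lost its call after thinning. Ifi27l2a stood at 81.2, 13.4 and 5.44, and at 555 in WT. The protease Usp18 (17.9, 5.44 and 2.80) and the GTPases Gbp4 (80.1, 23 and 14.4) and Irgm1 (37.5, 15.2 and 11) followed. Irf1, another factor of the pathway, was not called (42.5, 31.5 and 55.6). The receptor chain Ifnar1 was called lower (52.0, 25.7 and 21.8), though not after thinning. Low-cycling cells had 16 interferon genes called lower and cycling cells 14.

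Interferon genes carry in their promoters the interferon-stimulated response element, read here as 2 copies of GAAA with 2 bases between them, on either strand. RefSeq promoters of 300 bases (build GRCm38.p6) were matched to 7293 compared genes, and 211 (2.89%) held the element. In the interferon list 12 of 22 matched promoters did, 6 of the 10 of genes called lower and 6 of the 12 of the rest. Promoters of 4 genes are shown as the 120 bases before the start, with the element in capitals, to show its place in genes that met the call (Ifit1, Tgtp2, Gbp7) and in Isg15, a ubiquitin-like protein that narrowly did not, though it was called lower with cells thinned. A match is a description and no evidence of binding.
Ifit1, chr19:34640769-34640888, plus strand: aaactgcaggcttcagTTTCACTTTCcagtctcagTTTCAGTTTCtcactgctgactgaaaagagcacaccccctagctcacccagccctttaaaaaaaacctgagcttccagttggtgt
Tgtp2, chr11:49064213-49064332, minus strand: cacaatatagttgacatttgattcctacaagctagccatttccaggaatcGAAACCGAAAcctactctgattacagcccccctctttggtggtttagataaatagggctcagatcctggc
Gbp7, chr3:142530216-142530335, plus strand: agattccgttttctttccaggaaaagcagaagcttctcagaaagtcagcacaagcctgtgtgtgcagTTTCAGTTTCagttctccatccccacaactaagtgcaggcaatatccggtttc
Isg15, chr4:156200819-156200938, minus strand: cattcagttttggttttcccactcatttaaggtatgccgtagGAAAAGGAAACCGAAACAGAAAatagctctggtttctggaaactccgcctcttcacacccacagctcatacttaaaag
Ifit1 holds 2 separate elements, the first starting 104 bases before the start, and Tgtp2 and Gbp7 hold 1 each, at 70 and 53 bases. Isg15 holds 3 overlapping matches from 78 bases before the start. Levels beside these sequences were 20.7, 0.710 and 1.23 for Ifit1, 13.3, 1.96 and 0.186 for Tgtp2, 74.8, 32.7 and 30.6 for Gbp7, and 85.8, 43.2 and 29.1 for Isg15.

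Other immune and surface families were lower as well. In the Gimap family, GTPases of lymphocyte survival, 4 of 8 were called lower and 7 were below 0 in both leukemias. Gimap7 stood at 125, 8.15 and 9.17, Gimap6 at 305, 56.7 and 39.2, and Gimap8 at 107, 18.9 and 14, all 3 with an edgeR adjusted p under 0.05 (0.0221, 0.0366 and 0.0355). Gimap3 stood at 57.5, 6.97 and 1.34. Gimap5 was not called and differed in sign between the leukemias (40.8, 34.3 and 55.1). Class I genes were mixed. H2-D1, a classical presenting molecule, stood at 960, 369 and 306, H2-K1 was not called (235, 166 and 167), and H2-T22 was higher (92.8, 641 and 193). B2m, the shared light chain, stood at 762, 835 and 758.

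Of 16 compared migration receptors and integrins 5 were lower and none higher, against 6.21% of all genes lower. Ccr9, the chemokine receptor of thymus and gut homing, stood at 562, 48.0 and 13.9, Itga4, an integrin chain, at 183, 30.7 and 13.0, and S1pr4, a sphingosine phosphate receptor, at 21.5, 3.6 and 5.11. Cytoskeletal genes gave 7 lower of 29, with the calcium-binding S100a10 at 641, 17.8 and 1.57, S100a11 at 85.4, 3.03 and 1.57 and the focal adhesion protein Tes at 132, 3.08 and 0.298. Vimentin, Vim, an intermediate filament, stood at 691, 164 and 167 (edgeR adjusted p = 0.0366). Among surface molecules 6 of 23 were lower, including Cd226 (28.7, 3.33 and 3.06) and Cd96 (87.3, 18.7 and 14.4), a pair of receptors that share a ligand, and Cd53 (214, 61.9 and 35.3). Cd160 was higher (5.58, 22.3 and 42.6).

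Lineage factors were divided. Higher were Ikzf3, an Ikaros family member (21.2, 130 and 87.8), Ets2 (11.8, 97.0 and 34.9) and Lef1, a Wnt pathway factor (372, 960 and 759). Lower were Tox, a factor of the CD4 lineage (212, 49.7 and 48.4, edgeR adjusted p = 0.0347), Runx3 (44.7, 11.4 and 10.6), Bach2 (12.9, 3.43 and 2.31), Ikzf2 (820, 405 and 363) and Hhex. The commitment factors Tcf7 (891, 857 and 720) and Gata3 were not called, and Bcl11b was low in T-ALL#2 alone (980, 958 and 216). Rag2, a recombinase subunit, was called lower at 12.5, 6.12 and 2.80, but its T-ALL#1 ratio reversed to 0.24 with cells thinned, so it carries no direction. Of the TAL1 target genes of human T-ALL 1 of 17 was higher (Ets2) and 3 lower (Arid5b, at 49.4, 15.5 and 11.5, Cd53 and Cd84). Over all genes 5.53% were higher and 6.21% lower.

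Survival and arrest genes gave calls of varied size. Of 17 compared genes of the p53 and DNA damage response 4 were higher and 0 lower. In the Bcl2 family 1 of 9 was higher and 1 lower. Cdkn2a, the locus of the p16 and p19Arf tumour suppressors, stood at 1.18, 11.5 and 18.1, with 0.483 in WT, at log2 ratios of 3.29 and 3.95 (edgeR adjusted p = 0.0859). It was the only Cdk inhibitor called of 5 compared, and Cdkn1b stood at 140, 120 and 81.3. Gadd45g, a stress-induced growth inhibitor, stood at 3.35, 49.5 and 30.2, and Bax, a promoter of cell death, at 113, 281 and 338. Bcl2, the founding survival gene of its family, was lower at 89.2, 26.6 and 18.5, while Mcl1 (233, 189 and 166) and Bcl2l1 (17.5, 39.3 and 16.1) were not called. Pvt1, a non-coding neighbour of Myc, went from 2.67 to 12.7 and 21.3. Txnip, an inhibitor of glucose uptake, stood at 289, 68.4 and 41.5, and Foxo3, a factor of resting cells, at 55.8, 25.2 and 22.6. Those were the 2 calls, both lower, among 28 genes of quiescence, near the share of 6.21% over all genes. Of 21 early genes induced by receptor signals 5 were higher, against 5.53% of all genes, among them Fos (20.1, 113 and 61.3) and Fosb (10.5, 101 and 80.4, edgeR adjusted p = 0.0347).

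Beyond the lists, the leading genes by the smaller of the 2 log2 ratios, among those with a level of at least 100 in some library, included several with no place in the pathways above. Agfg1, a nucleoporin-like protein, stood at 56.5, 527 and 484, the methyltransferase Prmt7 at 55.8, 341 and 492, and Wdr25 at 10.4, 158 and 126. All 3 passed edgeR's test (adjusted p = 0.0296, 0.0494 and 0.0291). Dap, a regulator of autophagy, stood at 20.0, 320 and 109, and Ifi202b, an interferon-inducible gene that was not in the interferon list, at 2.86, 20.9 and 117. Among the lower genes were Ctla2a, a protease inhibitor (104, 2.60 and 0.149), Clec2d, a ligand of NK receptors (371, 21.7 and 2.83), Zbtb20, a zinc finger repressor (161, 22 and 7.68), and Arhgap19 (128, 15.6 and 8.57).

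The share of thinned cells with a UMI shows how far these differences were spread. Hes1 was found in 0.21% of preleukemic cells (exact binomial 95% interval 0.105 to 0.376%), 31.8% of T-ALL#1 cells (30.6 to 33.0%) and 20.1% of T-ALL#2 cells (18.3 to 21.9%). Cpa3 was found in 57.9%, 0.546% and 0.203%, Rora in 32.1%, 1.37% and 1.92%, and S100a10 in 71.8%, 4.37% and 0.506%. Tpi1 was in 12%, 42.5% and 44.3% of cells. Cdkn2a remained in few cells, 0.115%, 1.22% and 2.13%. As a guide to free RNA, cells with UMIs of at least 3 B cell or myeloid markers held Hes1 in 0 of 16, 0 of 13 and 0 of 5 cells, which allows shares of up to 18.8%, 23.1% and 60.0% by a limit of 3 counts (exact binomial upper limits 20.6%, 24.7% and 52.2%). Their median depth before thinning was 4684, 4417 and 4640 UMIs, against 5125, 9024 and 17581 in all thinned cells. Cpa3 was in 18.8% of the 16 such preleukemic cells. In droplets of T-ALL#2 with at most 100 UMIs, Hes1 made up 95.3 of every 1000000 UMIs, against 114 in the cells without TMM. Cpa3 made up 1.65 and 1.82.

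Whole chromosomes were near the median of all genes except for 2. In T-ALL#1 the 382 compared genes of chromosome 15 had a median log2 ratio of 0.44, against -0.01 to 0.18 on every other chromosome, and 75.4% of them were above 0. In T-ALL#2 the same chromosome stood at 0.06, while the 337 genes of chromosome 14 had a median of 0.31, against -0.19 to 0.06 elsewhere, and 66.8% were above 0. Chromosome 14 stood at -0.00 in T-ALL#1. With cells thinned, the values were 0.32 for chromosome 15 in T-ALL#1 and 0.22 for chromosome 14 in T-ALL#2, and in low-cycling cells 0.28 and 0.24. Neither shift was shared by both leukemias, and copy number was not measured. The X chromosome stood at -0.01 and -0.18.

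**Figure D5:**
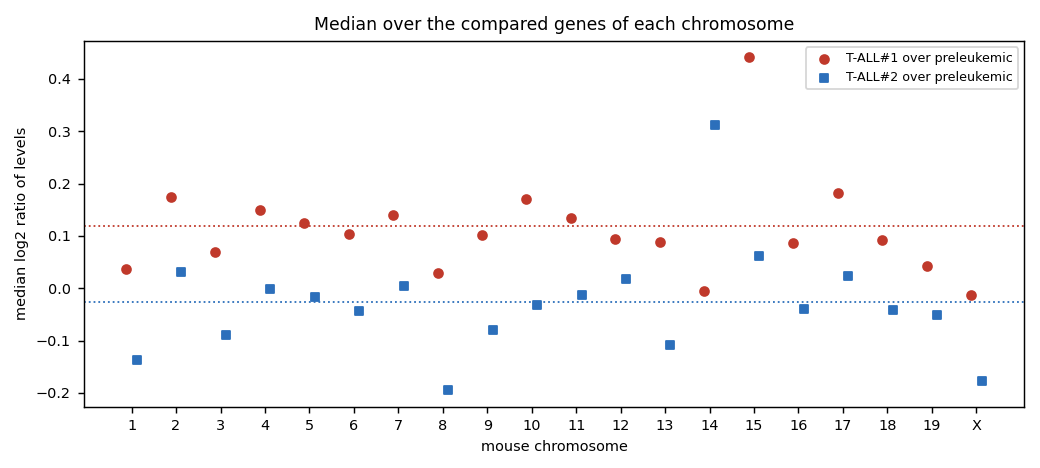
Median log2 ratio of levels over the compared genes of each chromosome, in T-ALL#1 (circles) and T-ALL#2 (squares) over the preleukemic library, with dotted lines at the medians over all genes. Chromosome 15 of T-ALL#1 stands at 0.44 and chromosome 14 of T-ALL#2 at 0.31.

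Several families had few or no calls. No gene was called among 37 proteasome subunits, although 35 were above 0 in both leukemias with medians of 0.60 and 0.74, nor among 19 genes of Ras and MAP kinase signalling. Cholesterol synthesis (1 of 22 called), chaperones (2 of 26) and splicing factors (1 of 31) had few. In DNA repair 1 of 28 was called, Xrcc6 (213, 971 and 688). With cells thinned 8 of 25 were called higher, against 7.22% of all genes. In cycling cells 10 of 28 were, against 8.22%, and in low-cycling cells 1 of 16, against 5.22%. Of the DNA repair genes compared in all cells 6 define the classes, so counts within a class are not independent of it.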

How the data were processed

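Thymic cells of 4 FVB/N mice were measured by droplet-based 3′ single-cell RNA sequencing. The deposited matrices hold UMI counts per gene and barcode, made by the authors with Cell Ranger (3.0.2 for WT, the preleukemic library and T-ALL#1, and 4 for T-ALL#2, per the file headers) on mm10. The T-ALL#2 matrix holds all barcodes, so its cells were called at 1/10 of the 99th percentile of UMIs of its top 10000 barcodes. That is fewer than the study started from. The labels name more than 1 chemistry version without assigning it to libraries. Software, chemistry and depth cannot be told apart from the animals. Doublets were limited only in an alternative with an upper gene limit.

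UMIs were summed per library in Python 3.11.15, and scaled by TMM factors (0.836 for T-ALL#1 and 0.74 for T-ALL#2). A library at 0 was set to a floor of 3 UMIs. Intervals and floors cover counting error only. edgeR 4.0.16 was fitted to the preleukemic library against both leukemias, with 1 residual degree of freedom, on the assumption that the lone preleukemic library varies like the leukemias. DESeq2 1.42.0 was an alternative. The edgeR fit and the fold rule were tested on simulated data, and DESeq2 was not. Of 31053 genes, 30934 matched GENCODE M21. The members and lists were chosen with earlier results of these data known. Genes named are up to 4 per list and direction with the largest smaller log2 ratio, genes whose role the text needs, and the leading 15 in each direction with a level of at least 100. Aldh1b1, the non-progenitor genes of the LMO2 list and chromosomes 14 and 15 were singled out after their values were seen. Results for items withheld from this text are not reported here, and the list of PI3K signalling genes is not plotted.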

Additional observations from a re-analysis of the deposited data

How the results depend on the processing

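The counts of genes higher and lower in both leukemias (513 and 576) stayed within 1.5 times under thinning, within low-cycling and within cycling cells, with cells weighted equally, other limits on cells and median-of-ratios scaling. They moved to 265 and 865 with library totals, to 796 and 1030 at a mean level of at least 1, to 293 and 258 at 20, to 1481 and 1147 at a fold of 1.5, and to 140 and 173 at 4. Leaving out 1 leukemia gave 798 to 932 higher and 693 to 1304 lower, the highest without T-ALL#1. edgeR's 95 genes became 112 with its own filter, 310 with thinned cells, 857 with library totals and 1873 with all genes with a UMI, and DESeq2 called 922. The share of cycling cells was 89.2%, 89.6% and 89.6% at a limit of 5 UMIs and 15.6%, 33.7% and 31.8% at 20, in the order preleukemic, T-ALL#1, T-ALL#2.

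Of 4612 recomputed ratios of 233 named or listed genes over 10 alternatives, 4286 kept direction and call, 322 kept direction and lost the call, and 4 reversed. Those were Hist2h2bb in T-ALL#1 (-0.39 in low-cycling cells) and Rag2 in T-ALL#1 (0.24 with cells thinned, 0.95 in low-cycling cells and 0.50 with cells weighted equally), and the cause was not tested. Of 1080 recomputed list medians 39 moved by 0.5 or more on the log2 scale and 54 took the other sign, 15 of them with library totals and 17 in low-cycling cells. The largest was that of secreted cytokines in T-ALL#2, from -1.04 to 0.64 in cycling cells. No median of a list at 1 or more in size and of 1 direction in both leukemias took the other sign. No paired analysis was possible because the preleukemic group holds 1 library. With 1 preleukemic animal, no spread among preleukemic mice is known.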
